A study of Mus musculus with 12 samples.

Results

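Chemokines and their receptors were followed in white fat as 57 protein-coding genes, chosen by name from 18640 protein-coding genes among the 32622 genes of each expression table. They were all genes whose symbol begins with Ccl, Cxcl, Ccr, Cxcr or Ackr followed by a number, and Cx3cl1, Cx3cr1, Xcl1 and Xcr1. By role they were 35 ligands, 18 signalling receptors and 4 atypical receptors. RNA was sequenced from epididymal fat (epWAT) and subcutaneous fat (scWAT) of C2orf74 KO mice and of WT mice, all put on a high-fat diet at 8 weeks of age and kept on it for 12 weeks. The groups were KO epWAT (mice C7, C34 and C695), WT epWAT (mice C75, C85 and C99), KO scWAT (again C7, C34 and C695) and WT scWAT (again C75, C85 and C99). Values of a group are given in that order of mice throughout. Each group thus held 3 libraries. Each of the 6 mouse codes occurs once per pad and was taken as the same mouse. No group ate another diet, and the sources used here do not give how or in which cells C2orf74 was disrupted, nor the strain and sex of the mice.

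Chemokines are small secreted proteins that steer migrating white blood cells, each read by G protein-coupled receptors on the cells it attracts. CC ligands mostly act on monocytes, macrophages, eosinophils and T cells, whereas CXC ligands act on neutrophils or lymphocytes. Atypical receptors bind chemokines without the usual G protein signal and carry or remove them. In obese fat, Ccl2 and its receptor Ccr2 are known for bringing in blood monocytes that become macrophages, most of all in the visceral pads.

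Many of the genes lie side by side. On chromosome 11, 6 ligand genes (Ccl2, Ccl7, Ccl11, Ccl12, Ccl8 and Ccl1) occupied chr11:82035571-82305690 and 5 more (Ccl5, Ccl9, Ccl6, Ccl3 and Ccl4) occupied chr11:83525778-83664683 in GRCm38. On chromosome 9, the receptor genes Ccr1, Ccr3 and Ccr2 are likewise neighbours. The neutrophil-attracting ligands Cxcl5, Cxcl3, Cxcl1 and Cxcl2 lay with Cxcl15 in chr5:90759360-90905938. Promoter windows, from 250 bases before to 50 bases after the RefSeq start site (GRCm38.p6), were on hand for 43 of the 57 genes. A pattern of the kind bound by NF-kB, GGNNNTTCC, was searched on both strands and occurred in 17 of the 47 windows of these 43 genes, against 18.5% of all 32851 promoter windows. A pattern like the interferon-responsive element, GAAANNGAA, occurred in 8 of the 47, against 8.56% of all windows. No match of 1 pattern overlapped a match of the other in the 4 windows shown. These are the windows of 2 neighbouring ligands that were both highest in the same library (Cxcl1 and Cxcl2) and of the ligand and the receptor with the smallest p-values between KO and WT epWAT (Cxcl14 and Ccr2), with matches in capitals. The windows are chr5:90890995-90891294 on the plus strand for Cxcl1, chr5:90903649-90903948 on the plus strand for Cxcl2, chr13:56296502-56296801 on the minus strand for Cxcl14 and chr9:124101933-124102232 on the plus strand for Ccr2. They run in the 5′ to 3′ direction of the gene. Cxcl1 and Cxcl2 each hold 2 NF-kB-like matches, and Cxcl14 and Ccr2 each hold 1 interferon-element-like match, that of Ccr2 and the first of Cxcl1 being on the opposite strand.
Cxcl1: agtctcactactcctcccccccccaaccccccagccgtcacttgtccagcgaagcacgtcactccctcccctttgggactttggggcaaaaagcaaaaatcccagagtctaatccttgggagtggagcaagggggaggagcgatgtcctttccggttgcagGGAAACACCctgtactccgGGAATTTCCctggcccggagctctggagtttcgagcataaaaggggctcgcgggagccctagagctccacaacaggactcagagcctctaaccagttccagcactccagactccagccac
Cxcl2: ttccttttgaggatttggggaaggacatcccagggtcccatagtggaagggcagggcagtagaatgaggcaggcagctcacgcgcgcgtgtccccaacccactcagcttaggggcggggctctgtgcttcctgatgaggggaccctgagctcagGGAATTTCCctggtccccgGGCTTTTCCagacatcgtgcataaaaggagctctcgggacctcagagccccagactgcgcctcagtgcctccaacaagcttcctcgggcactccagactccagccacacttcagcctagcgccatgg
Cxcl14: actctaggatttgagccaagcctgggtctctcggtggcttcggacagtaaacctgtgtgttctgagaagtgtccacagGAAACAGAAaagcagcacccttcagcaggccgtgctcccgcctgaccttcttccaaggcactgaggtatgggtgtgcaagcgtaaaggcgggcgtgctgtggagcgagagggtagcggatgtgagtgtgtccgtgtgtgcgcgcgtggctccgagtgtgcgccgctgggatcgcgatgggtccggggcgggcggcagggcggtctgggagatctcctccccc
Ccr2: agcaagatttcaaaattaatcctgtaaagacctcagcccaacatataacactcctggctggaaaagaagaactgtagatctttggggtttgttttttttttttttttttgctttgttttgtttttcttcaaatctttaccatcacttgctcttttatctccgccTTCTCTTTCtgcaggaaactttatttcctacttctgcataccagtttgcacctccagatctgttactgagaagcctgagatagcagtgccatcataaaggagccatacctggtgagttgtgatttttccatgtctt

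The NF-kB-like matches of Cxcl1 began 89 and 70 bases before the start site, and those of Cxcl2 began 96 and 77 bases before it. The capitals mark letters only. Whether any factor binds there was not measured.

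Recovered depths were 15011093 to 18311564 reads per library. The fat marker Adipoq was at 1108 to 2442 FPKM (a level scaled to exon length and to library depth) in all 12 libraries. The homeobox gene Hoxc10, used in subcutaneous fat, was at 6.27 to 10.5 FPKM in the scWAT libraries and at most 0.728 FPKM in the epWAT libraries. Mouse 1700093K21Rik, taken as the counterpart of human C2orf74, was at 0.0301, 0 and 0 FPKM in KO epWAT against 0, 0.142 and 0.0546 in WT epWAT, and at 0.0592, 0 and 0 in KO scWAT against 0.215, 0.272 and 0.084 in WT scWAT. These values are too close to 0 in WT to check the genotype labels in either pad. A few libraries stood apart. KO epWAT C7 had a summed 404.7 FPKM of 9 epididymis and germ cell markers, against at most 8.52 in any other library, and 83.5 FPKM of 7 neutrophil markers, although the neutrophil-defining Ly6g was at 0.256 FPKM and Camp at 0. KO scWAT C695 had 104.1 FPKM of 8 T cell markers, against at most 13.0 in any other library, 45.7 FPKM of the lymph node vessel gene Glycam1 and 11.6 FPKM of the B cell gene Ms4a1. KO scWAT C34 had 272.9 FPKM of 5 skeletal muscle markers, although WT scWAT C85 also had 148.8.

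A few ligands held much of the ligand mRNA. Of the 57 genes, 34 reached 1 FPKM in at least 3 of the 12 libraries, 12 did so in 1 or 2 libraries and 11 in none. Of those 11, the Ccr6 ligand Ccl20 was at 0 everywhere, where 3 reads would have been 0.115 to 0.141 FPKM. The macrophage ligand Ccl6 was the most abundant ligand in 10 of 12 libraries, the exceptions being KO scWAT C695 (Ccl21a) and WT scWAT C75 (Ccl11). The 3 highest ligands of a library supplied 43.0% (KO epWAT C7) to 73.6% (WT epWAT C99) of its summed ligand FPKM. These were all CC ligands in 8 of 12 libraries, and the other 4 had a CXC ligand among these 3, Cxcl1 in KO epWAT C7 and Cxcl14 in KO scWAT C695, WT scWAT C75 and WT scWAT C99. Among signalling receptors, Cxcr4 or Ccr2 was highest in every library. Among atypical receptors that place was always taken by Ackr3. Of the 46 genes that reached 1 FPKM anywhere, 15 had their highest value in KO scWAT C695, 9 in KO epWAT C7, 8 in KO scWAT C34 and 7 in WT epWAT C75.

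**Figure D1:**
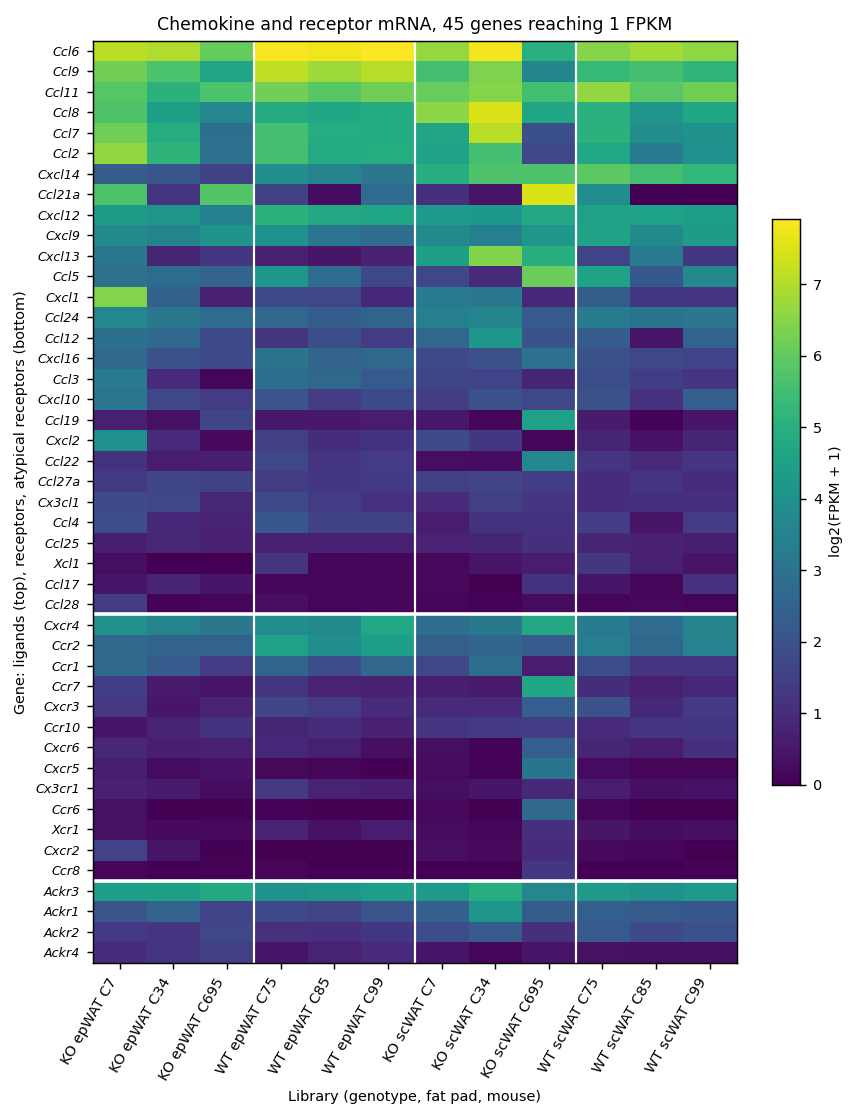
Level of 45 genes that reached 1 FPKM in at least 1 library, as log2(FPKM + 1) by colour, with genes in rows (ligands, receptors and atypical receptors from top to bottom, each by falling mean) and the 12 libraries in columns. Ccl6 and Ccl9 are bright in the WT epWAT columns (Ccl6 also in KO scWAT C34), and the KO scWAT C695 column stands out for Ccl21a, Ccl19, Ccl5, Ccr7 and Cxcr5.

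In epididymal fat the receptor Ccr2 and the ligands Ccl6, Ccl9, Cxcl14 and Cxcl12 were lower in every KO library than in any WT library. The atypical receptor Ackr4 and the eosinophil-attracting ligand Ccl24 lay the other way. Ackr4 reached 1 FPKM only in the KO epWAT libraries. It thus passed the filter for testing only through its higher group, and its lack of overlap follows from that filter. None of these differences passed the threshold of an adjusted p below 0.05 in limma over all genes. Of 31 chemokine and receptor genes tested, 13 had a positive and 18 a negative KO minus WT difference of log2(FPKM + 1), with a median of -0.19 against -0.10 over all 12722 genes tested. The median of these genes depended on the setting. With upper-quartile scaling it was -0.06, and the median over all genes moved along with it, to 0.02. It was -0.71 without KO epWAT C7 and 0.14 without KO epWAT C695, fits for which the median over all genes was not taken. The calls were 0 higher and 0 lower, against 0% of all genes higher and 0% lower. At an unadjusted p under 0.05 the count was 11 of 31, against 29.8% of all genes, and limma-voom on recovered reads also called 0. Groups did not overlap for 2 genes with KO higher, against 9.60% of all genes, and for 8 with KO lower, against 29.2%.

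Ccr2 (ENSMUSG00000049103, chr9:124101950-124113557), which brings monocytes out of the blood, stood at 5.22, 4.72 and 4.72 FPKM in KO epWAT, against 21.9, 13.8 and 20.2 FPKM in WT epWAT. The 3 KO values were nearly equal and all below the lowest WT value. The difference was -1.71 ± 0.17 (SE; adjusted p = 0.0533). No gene tested in this pad had a smaller adjusted p, but other genes shared this value, so it does not rank Ccr2 first. The values rested on at least 453 reads in each of the 12 libraries. In a bulk sample, fewer cells of a type and less RNA per cell cannot be told apart.

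Ccr1, which binds Ccl3 and Ccl5, was at 5.65, 3.82 and 1.62 FPKM in KO epWAT, against 4.92, 2.63 and 5.06 FPKM in WT epWAT. The groups overlapped, and the difference was -0.21 ± 0.37 (SE; adjusted p = 0.733). Cxcr4, the receptor that holds cells at sources of Cxcl12, was at 14.6, 10.6 and 7.85 FPKM in KO epWAT, against 13.8, 12.9 and 25.1 FPKM in WT epWAT, again with overlap (log2 difference -0.59 ± 0.30 SE, adjusted p = 0.243). Cxcr3, the receptor of effector T cells and NK cells, was at 1.47, 0.401 and 0.731 FPKM in KO epWAT, against 2.15, 1.64 and 0.917 FPKM in WT epWAT. Its highest KO value lay between the WT values.

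Among ligands, Ccl6 (ENSMUSG00000018927, chr11:83587882-83593087) and its neighbour Ccl9 (ENSMUSG00000019122, chr11:83572919-83578636) are mouse CC chemokines made by macrophages that act through Ccr1. Ccl6 was at 136, 125 and 65.2 FPKM in KO epWAT, against 228, 216 and 241 FPKM in WT epWAT. Ccl9 was at 74.4, 50.7 and 23.6 FPKM in KO epWAT, against 144, 106 and 134 FPKM in WT epWAT. Neither gene's groups overlapped, and the differences were -1.14 ± 0.27 (SE; adjusted p = 0.0709) for Ccl6 and -1.49 ± 0.40 (SE; adjusted p = 0.0783) for Ccl9. KO C695 was the lowest library for both.

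Cxcl14 (ENSMUSG00000021508, chr13:56288643-56296551), a ligand of skin, fibroblasts and fat whose receptor is not settled, was at 4.0, 3.35 and 1.86 FPKM in KO epWAT, against 14.5, 10.6 and 7.85 FPKM in WT epWAT. The highest KO value lay below the lowest WT value, with a difference of -1.56 ± 0.28 (SE; adjusted p = 0.066). Cxcl12 (ENSMUSG00000061353, chr6:117168535-117181367), the stromal ligand of Cxcr4, was at 19.8, 17.3 and 10.2 FPKM in KO epWAT, against 33.2, 26.4 and 24.0 FPKM in WT epWAT. The groups did not overlap either, with a smaller difference of -0.82 ± 0.25 (SE; adjusted p = 0.0954). Ackr3, which removes Cxcl12, was at 20.1, 21.8 and 26.3 FPKM in KO epWAT, against 15.3, 17.4 and 20.6 FPKM in WT epWAT, so that 2 of its KO values exceeded every WT value and the third did not (log2 difference 0.34 ± 0.14 SE, adjusted p = 0.169).

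Ccl11, the eotaxin read by the eosinophil receptor Ccr3, was at 56.0, 33.1 and 50.7 FPKM in KO epWAT, against 74.9, 57.3 and 72.1 FPKM in WT epWAT. Ccl24, a second Ccr3 ligand, was at 11.6, 7.86 and 5.76 FPKM in KO epWAT, against 5.14, 4.0 and 4.91 FPKM in WT epWAT. The groups of both genes did not overlap and the differences pointed opposite ways, at -0.56 ± 0.21 (SE; adjusted p = 0.142) for Ccl11 and 0.69 ± 0.23 (SE; adjusted p = 0.112) for Ccl24. Ccr3 itself was at 0.295, 0.159 and 0.0407 FPKM in KO epWAT, against 0.828, 0.80 and 0.184 FPKM in WT epWAT, below 1 FPKM in every library and therefore not tested. Ackr4, which removes Ccl19, Ccl21 and Ccl25, was at 1.01, 1.3 and 1.86 FPKM in KO epWAT, against 0.378, 0.698 and 0.926 FPKM in WT epWAT. Its difference was 0.52 ± 0.19 (SE; adjusted p = 0.135), and part of its sequence (479 bases) overlaps Acad11, whose reads cannot be told apart without strand.

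The classical monocyte-attracting ligands had wide spread in KO epWAT. Ccl2 was at 98.0, 34.9 and 6.73 FPKM in KO epWAT, against 47.2, 27.8 and 28.6 FPKM in WT epWAT. Ccl7 was at 73.3, 28.7 and 6.65 FPKM in KO epWAT, against 45.7, 29.1 and 28.0 FPKM in WT epWAT. For both, KO C7 lay above and KO C695 below every WT library, and the differences of -0.20 ± 0.88 (SE; adjusted p = 0.9) for Ccl2 and -0.42 ± 0.78 (SE; adjusted p = 0.742) for Ccl7 were smaller than their errors. Ccl8, a neighbour of Ccl2 in the chromosome 11 group, was at 52.9, 21.2 and 11.7 FPKM in KO epWAT, against 28.1, 24.7 and 28.3 FPKM in WT epWAT, with the same order of KO mice. Ccl12, another Ccr2 ligand of mice, was at 6.64, 5.6 and 2.36 FPKM in KO epWAT, against 1.37, 2.75 and 1.63 FPKM in WT epWAT, with KO C7 and C34 above all WT values (log2 difference 0.95 ± 0.34 SE, adjusted p = 0.127).

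Ccl3 was at 8.52, 0.981 and 0.087 FPKM in KO epWAT, against 6.26, 5.27 and 3.72 FPKM in WT epWAT. Ccl4 was at 2.75, 0.876 and 0.707 FPKM in KO epWAT, against 3.42, 1.9 and 1.91 FPKM in WT epWAT. Both are ligands induced in activated macrophages, and in both KO C7 lay within or above the WT range while KO C34 and C695 lay below it. Ccl5, a ligand made by T cells, was at 6.67, 6.02 and 4.79 FPKM in KO epWAT, against 17.0, 5.75 and 2.28 FPKM in WT epWAT with the KO values inside the WT range. Ccl22, a Ccr4 ligand of dendritic cells, was also lower in every KO library than in any WT library (log2 difference -0.61 ± 0.21 SE, adjusted p = 0.114).

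Marker levels of other cell types separated the same groups, with 0 of the 14 macrophage markers called. The 14 macrophage markers summed to 700 to 1689 FPKM in KO epWAT and to 2422 to 3328 FPKM in WT epWAT, 13 of 14 had a negative difference with a median of -1.12, and none was at 0. The 7 adipocyte markers summed to 7405 to 10930 FPKM in KO epWAT and to 4177 to 5743 FPKM in WT epWAT. The 7 B cell markers had a summed level of 465.9 to 676.9 FPKM in KO epWAT, against 262.3 to 349.4 FPKM in WT epWAT, although the B cell gene Ms4a1 was at most 0.645 FPKM in either group. The 5 skeletal muscle markers had one of 35.9 to 59.1 FPKM in KO epWAT, against 7.82 to 26.9 FPKM in WT epWAT. Dendritic cell and lymph node stroma sums were lower in every KO library. Of the latter list, Glycam1 was at 0 in WT epWAT and Madcam1 at most 0.0464 FPKM in epWAT, so that sum rested on its less specific genes. Mitochondrial genes took 10.8% to 13.9% of summed FPKM in KO epWAT, against 6.98% to 8.12% in WT epWAT. Per 1000 FPKM of macrophage markers, Ccr2 was at 3.09, 4.44 and 6.74 in KO epWAT and 6.59, 5.68 and 7.49 in WT epWAT, and the groups overlapped. Ccl6 was at 80.3, 117 and 93.2 in KO epWAT and 68.6, 89.3 and 89.3 in WT epWAT, and Ccl9 at 44.0, 47.7 and 33.6 in KO epWAT and 43.1, 44.0 and 49.6 in WT epWAT, overlapping as well. Cxcl12 was at 11.7, 16.2 and 14.5 in KO epWAT and 9.96, 10.9 and 8.9 in WT epWAT on that scale, higher in every KO library. Ccr1, Cxcl16, Ccl8, Ccl24, Ccl12 and Cxcl13 were likewise higher in every KO library per macrophage marker FPKM, and Cxcl14 overlapped. The marker sum was itself lower in every KO library, which raises this ratio for any gene that fell less than the markers. The ratio was taken for chosen genes only, so no share over all genes stands beside it. The part of these other signals in the differences was not tested.

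Calls in this pad turned on mouse C7, whose epWAT library held epididymal and sperm transcripts. That library also had the highest macrophage marker sum in KO epWAT, at 1689 FPKM against 1064 (C34) and 700 (C695). Without it, only C34 and C695 were left in the KO group. That fit called 9 genes lower at an adjusted p below 0.05 in limma, against 11.6% of all 12485 genes tested. Why the calls moved was not tested. Among them were Ccr2 (log2 difference -1.75 ± 0.20, adjusted p = 0.0247), Ccl3 (-2.03 ± 0.31, adjusted p = 0.0247), Cxcl14, Ccl9, Ccl6, Cxcl16, Ccl22 and Cxcl12. With all 6 libraries Ccl3 had a difference of -1.13 ± 0.76 (SE; adjusted p = 0.354) and Cxcl16 one of -0.59 ± 0.26 (SE; adjusted p = 0.19). With the spread shared over all 12 libraries 4 genes were called lower, against 10.8% of all genes, among them Ccr2 (adjusted p = 0.00614), Cxcl14 (adjusted p = 0.0133) and Cxcl12 (adjusted p = 0.0375). Without WT epWAT C85 Ccr2 was called lower (adjusted p = 0.0353), against 0.00803% of all genes, and over all alternatives its difference was -1.91 to -1.24 with an adjusted p of 0.00545 to 0.21.

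**Figure D2:**
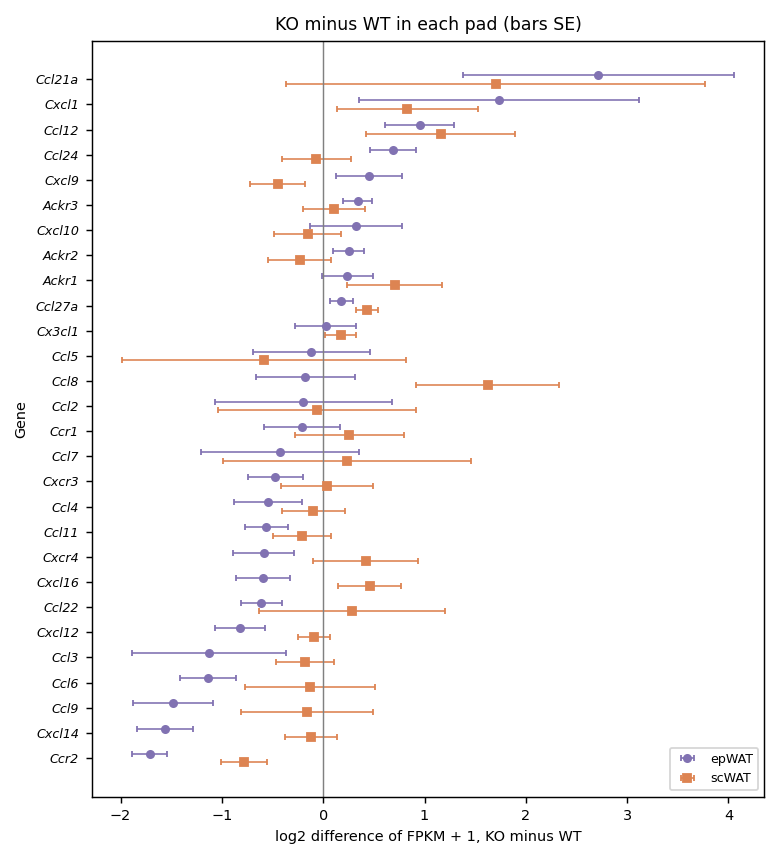
KO minus WT difference of log2(FPKM + 1) for 28 genes tested in both pads, with SE as bars, circles for epWAT and squares for scWAT (n = 3 per group), ordered by the epWAT difference. Ccr2, Cxcl14, Ccl9 and Ccl6 lie between -1.71 and -1.14 in epWAT, and in scWAT only Ccr2 of these lies clear of 0 by more than its SE.

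In subcutaneous fat the B cell ligand Cxcl13 was higher and Ccr2 lower in every KO library than in any WT library, and most macrophage ligands overlapped between genotypes. No difference passed the threshold. Of 31 genes tested, 16 were positive and 15 negative, with a median of 0.04 against 0.01 over all 12614 genes. The calls were 0 higher, against 0.0476% of all genes, and 0 lower, against 0.270%, and limma-voom called 0 as well. An unadjusted p under 0.05 was reached by 3 genes, against 17.0% of all genes. Groups did not overlap for 2 genes with KO higher, against 11.1% of all genes, and for 1 with KO lower, against 13.4%.

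Cxcl13 (ENSMUSG00000023078, chr5:95956951-95961068), which guides B cells through Cxcr5, was at 21.4, 84.9 and 30.0 FPKM in KO scWAT, against 2.04, 8.64 and 1.42 FPKM in WT scWAT. All 3 KO libraries lay above the highest WT library, and the difference of 3.24 ± 0.68 (SE; adjusted p = 0.111) was the largest of the 31. In epididymal fat Cxcl13 was at 7.57, 0.754 and 1.39 FPKM in KO epWAT, against 0.638, 0.396 and 0.667 FPKM in WT epWAT and reached 1 FPKM in too few libraries to be tested. With the spread shared over 12 libraries the scWAT difference was called (adjusted p = 0.0412), as were 0.349% of all genes in that direction. It was 2.67 without KO scWAT C34 and 3.41 without KO scWAT C695, not called in either case (adjusted p = 0.203 and 0.0966). Its receptor Cxcr5 was at 0.178, 0.0529 and 7.44 FPKM in KO scWAT, against 0.167, 0.0819 and 0.0675 FPKM in WT scWAT, above 1 FPKM only in KO scWAT C695, and at 0.58, 0.191 and 0.30 FPKM in KO epWAT, against 0.118, 0.102 and 0.0329 FPKM in WT epWAT.

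Ccl27a, the skin ligand of Ccr10, was at 1.8, 2.05 and 1.69 FPKM in KO scWAT, against 1.06, 1.29 and 0.993 FPKM in WT scWAT. The groups did not overlap (log2 difference 0.43 ± 0.11 SE, adjusted p = 0.143), but 45.0% of its 50-base stretches also occur in near-identical copies such as Ccl27b, so its reads are uncertain. In epididymal fat it was at 1.55, 2.14 and 1.93 FPKM in KO epWAT, against 1.61, 1.41 and 1.57 FPKM in WT epWAT, with overlap. Ccr2 was at 4.29, 4.95 and 3.84 FPKM in KO scWAT, against 9.57, 5.42 and 10.4 FPKM in WT scWAT. The highest KO value was below the lowest WT value, and the difference was -0.78 ± 0.23 (SE; adjusted p = 0.177).

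Ccl8 was at 93.2, 181 and 24.1 FPKM in KO scWAT, against 32.5, 16.4 and 24.3 FPKM in WT scWAT, with 2 of the 3 KO libraries above every WT library (log2 difference 1.62 ± 0.71 SE, adjusted p = 0.315). That difference was 0.99 without KO scWAT C34 (adjusted p = 0.483) and 2.42 without KO scWAT C695 (adjusted p = 0.0533). Ccl12 was at 5.09, 17.4 and 3.09 FPKM in KO scWAT, against 3.91, 0.407 and 4.92 FPKM in WT scWAT. Ccl7 was at 24.1, 138 and 2.86 FPKM in KO scWAT, against 32.8, 13.9 and 15.3 FPKM in WT scWAT. Ccl2 was at 22.4, 45.9 and 2.31 FPKM in KO scWAT, against 25.9, 8.64 and 15.0 FPKM in WT scWAT. In these 4 neighbouring genes KO C34 was the highest library, and KO C695 was below every WT library for Ccl2 and Ccl7. The 14 macrophage markers summed to 565 to 1609 FPKM in KO scWAT and to 924 to 1059 FPKM in WT scWAT, with C34 highest and C695 lowest. The 7 adipocyte markers summed to 10330 to 12860 FPKM in KO scWAT and to 7945 to 9075 FPKM in WT scWAT.

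Unlike Ccr2, the macrophage ligands Ccl6, Ccl9, Ccl3 and Ccl4 and the receptor Ccr1 overlapped between genotypes here. Ccl6 was at 99.6, 221 and 31.9 FPKM in KO scWAT, against 88.7, 111 and 94.3 FPKM in WT scWAT. Ccl9 was at 46.1, 82.1 and 11.5 FPKM in KO scWAT, against 38.1, 46.7 and 35.6 FPKM in WT scWAT. Both ligands were highest in KO C34 and lowest in KO C695. Ccr1 was at 2.31, 5.91 and 0.545 FPKM in KO scWAT, against 2.77, 1.33 and 1.35 FPKM in WT scWAT. In all 3 the WT libraries lay between KO C34 and KO C695. Ccl3 was at 2.17, 1.99 and 0.747 FPKM in KO scWAT, against 2.74, 1.78 and 1.32 FPKM in WT scWAT. Ccl4 was at 0.54, 1.25 and 1.21 FPKM in KO scWAT, against 1.68, 0.331 and 1.62 FPKM in WT scWAT. These ligands overlapped between genotypes as well.

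Cxcl14 was at 29.9, 50.9 and 51.0 FPKM in KO scWAT, against 59.3, 45.4 and 37.0 FPKM in WT scWAT, far above its epWAT level in both genotypes. The groups overlapped (log2 difference -0.12 ± 0.26 SE, adjusted p = 0.859). Cxcl12 was at 18.6, 17.6 and 26.7 FPKM in KO scWAT, against 22.4, 23.2 and 20.7 FPKM in WT scWAT. Cxcr4 was at 6.05, 8.06 and 26.4 FPKM in KO scWAT, against 8.33, 5.8 and 10.5 FPKM in WT scWAT. Ackr3 was at 18.5, 29.7 and 11.7 FPKM in KO scWAT, against 18.1, 15.2 and 18.6 FPKM in WT scWAT. Within this ligand and its receptors, KO C695 had the highest Cxcl12 and Cxcr4 and the lowest Ackr3.

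Ccl11 was at 67.0, 88.3 and 45.4 FPKM in KO scWAT, against 98.6, 58.0 and 73.3 FPKM in WT scWAT. Ccl24 was at 9.59, 11.1 and 3.76 FPKM in KO scWAT, against 8.58, 7.38 and 7.72 FPKM in WT scWAT. The groups overlapped in both, and the KO values of Ccl24 enclosed those of WT. Ccr3 was at 0.127, 0.108 and 0 FPKM in KO scWAT, against 0.113, 0.134 and 0.0687 FPKM in WT scWAT. Ackr1, which carries chemokines across venules, was at 4.44, 16.4 and 4.07 FPKM in KO scWAT, against 4.26, 3.77 and 3.4 FPKM in WT scWAT, and at 3.23, 4.69 and 1.99 FPKM in KO epWAT, against 2.37, 2.06 and 3.23 FPKM in WT epWAT. KO scWAT C34 alone stood above the rest, and part of Ackr1 (361 bases) overlaps Cadm3. Ackr2, which removes inflammatory CC ligands, was at 2.7, 3.87 and 1.15 FPKM in KO scWAT, against 3.69, 2.36 and 3.0 FPKM in WT scWAT, and at 1.55, 1.33 and 2.19 FPKM in KO epWAT, against 1.19, 1.09 and 1.45 FPKM in WT epWAT. Ackr4 was at 0.387, 0.109 and 0.372 FPKM in KO scWAT, against 0.287, 0.264 and 0.251 FPKM in WT scWAT.

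**Figure D3:**
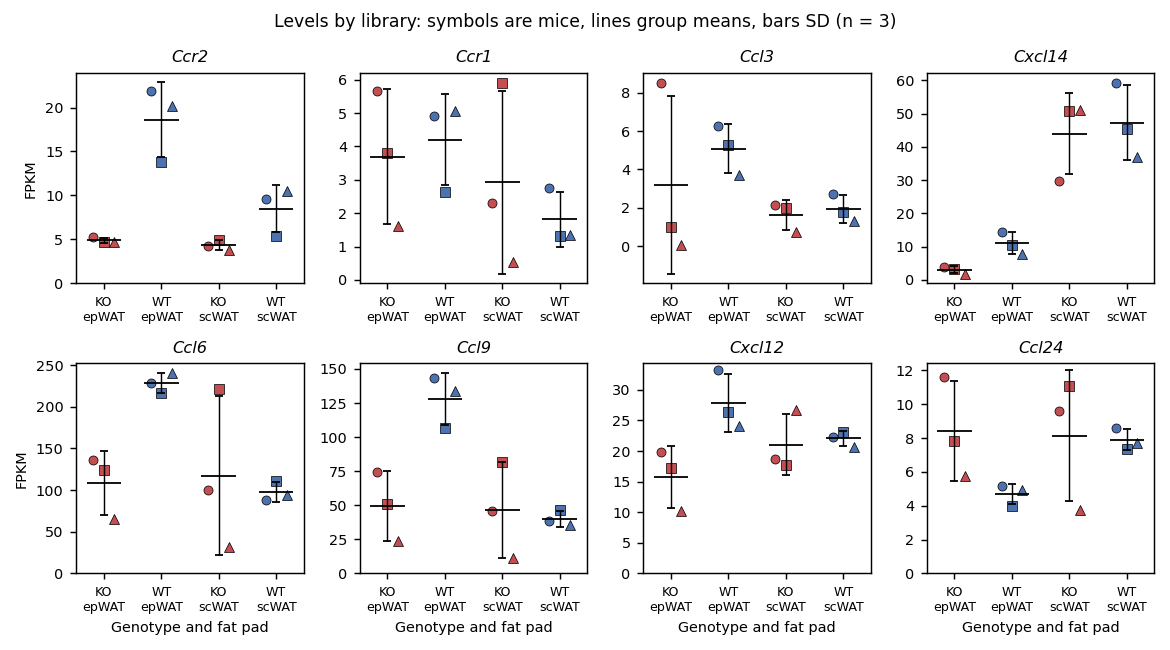
FPKM of 8 genes in the 4 groups, 1 symbol per mouse (circle C7 or C75, square C34 or C85, triangle C695 or C99) with group means as lines and SD as bars (n = 3). Ccr2, Ccl6, Ccl9, Cxcl14 and Cxcl12 show KO epWAT below WT epWAT without overlap, while of the 8 only Ccr2 does so in scWAT.

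Whether the KO difference depended on the pad was tested as an interaction, the KO minus WT difference in scWAT less that in epWAT, over all 12 libraries. Of 34 genes tested, 24 were positive and 10 negative, with a median of 0.46 against 0.10 over all 13487 genes. The calls were 0 higher, against 0.586% of all genes, and 0 lower, against 0.445%. An unadjusted p under 0.05 was reached by 6 genes, against 24.4% of all genes, and limma-voom also called 0. Cxcl14 came nearest at 1.44 ± 0.41 (SE; adjusted p = 0.0889), followed by Ccr2 at 0.93 ± 0.31 (SE; adjusted p = 0.114). Cxcl16, Cxcl12 and Cxcl13 stood at 1.05 ± 0.44 (SE; adjusted p = 0.179), 0.73 ± 0.32 (SE; adjusted p = 0.194) and 2.16 ± 0.97 (SE; adjusted p = 0.204). With KO epWAT C7 and KO scWAT C695 both left out, 7 genes were called higher, against 8.59% of all 13229 genes tested. Among these were Ccl8 (log2 difference 3.15 ± 0.50, adjusted p = 0.0135), Ccl9 (2.46 ± 0.47, adjusted p = 0.0196), Ccl3 (2.12 ± 0.41, adjusted p = 0.0208), Cxcl16, Ccl6 and Cxcl2. With all 12 libraries the interaction was 1.80 ± 0.95 (SE; adjusted p = 0.27) for Ccl8. It was 1.32 ± 0.84 (SE; adjusted p = 0.354) for Ccl9 and 0.95 ± 0.89 (SE; adjusted p = 0.538) for Ccl3. For Cxcl2 it was -0.08 ± 1.13 (SE; adjusted p = 0.973) with all libraries and 1.53 ± 0.38 (SE; adjusted p = 0.0391) without the pair. That fit keeps 2 KO libraries in each pad. Of the macrophage markers 13 of 14 had a positive interaction with all libraries, with a median of 1.31 and 0 called, and their part was not tested.

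The pads were compared within each genotype, which for WT mice uses again the 3 WT epWAT libraries of the KO comparison. In WT mice, Cxcl14, Ccl24 and Ackr2 were higher in scWAT, whereas Ccl6, Ccl9, Cxcl16, Ccl3 and Ccr2 were lower there, all with adjusted p below 0.05 in limma. In all, 3 of 31 genes tested were called higher, against 7.49% of all 12760 genes, and 6 lower, against 14.9%. The balance over all genes depended on the scaling. Upper-quartile scaling gave 4 higher, against 12.6%, and 6 lower, against 11.0%. Quantile scaling gave 4 higher, against 11.1%, and 6 lower, against 11.8%. An unadjusted p under 0.05 was reached by 18 genes, against 36.6% of all genes. Positive differences numbered 12 and negative ones 19, with a median of -0.26 against -0.04 over all genes. Groups did not overlap for 5 genes with scWAT higher, against 15.8% of all genes, and for 13 with scWAT lower, against 27.3%. Among them, Cxcl13 (higher in scWAT) and Cxcl2 (lower in scWAT) passed the filter for testing only through their higher pad, so their lack of overlap follows from it.

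Cxcl14 averaged 47.2 ± 11.2 FPKM in WT scWAT and 11.0 ± 3.35 FPKM in WT epWAT (SD, n = 3 each), a log2 difference of 2.02 ± 0.24 (SE; adjusted p = 0.00481). Ccl24 averaged 7.9 ± 0.62 FPKM in WT scWAT and 4.68 ± 0.604 FPKM in WT epWAT (log2 difference 0.65 ± 0.10 SE, adjusted p = 0.00822). Ackr2 averaged 3.02 ± 0.668 FPKM in WT scWAT and 1.25 ± 0.187 FPKM in WT epWAT (log2 difference 0.83 ± 0.14 SE, adjusted p = 0.0109). All 3 were higher in each WT scWAT library than in any WT epWAT library.

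Among the genes lower in WT scWAT, Ccl6 averaged 98.2 ± 11.8 FPKM in WT scWAT and 229 ± 12.3 FPKM in WT epWAT (log2 difference -1.22 ± 0.10 SE, adjusted p = 0.00312). Ccl9 averaged 40.2 ± 5.81 FPKM in WT scWAT and 128 ± 19.3 FPKM in WT epWAT (log2 difference -1.65 ± 0.14 SE, adjusted p = 0.00366). These neighbours had the smallest adjusted p-values of the 31. Cxcl16, a membrane-bound ligand and scavenger of macrophages, was at 2.86, 2.28 and 2.05 FPKM in WT scWAT, against 7.23, 4.73 and 5.29 FPKM in WT epWAT (log2 difference -0.98 ± 0.16 SE, adjusted p = 0.00941). Of its exons, 552 bases overlap Zmynd15. In KO mice Cxcl16 was at 2.38, 2.88 and 6.67 FPKM in scWAT, against 5.46, 2.87 and 2.45 FPKM in epWAT.

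The receptor Ccr2 (log2 difference -1.07 ± 0.26 SE, adjusted p = 0.0314) and the ligand Ccl3 (log2 difference -1.05 ± 0.22 SE, adjusted p = 0.0202) were also lower in WT scWAT without overlap. Ccr2 averaged 8.48 ± 2.69 FPKM in WT scWAT and 18.6 ± 4.31 FPKM in WT epWAT. Macrophage markers again moved with these genes, since 12 of 14 were called lower in WT scWAT with a median difference of -1.24, and 5 of 7 adipocyte markers were called higher. Of mesothelium markers 4 of 4 tested were called lower with a median of -2.8, and 3 of 5 progenitor markers and 2 of 3 mast cell and eosinophil markers tested were called higher. The single lymph node stroma marker tested, neither Glycam1 nor Madcam1, was called lower. Over all genes tested, 14.9% were called lower and 7.49% higher. Their part in the result was not tested.

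The mouse codes recur in both pads and were taken to mark the same mice. With the mouse as a block, 4 genes were called higher in WT scWAT, against 10.8% of all genes, and 11 lower, against 19.0%. The block added Cxcl9 to the higher genes and Ccl2, Ccl7, Cxcr4, Ccr1 and Cxcl2 to the lower ones. Without WT scWAT C85 or without WT scWAT C99, 3 genes were called lower, against 8.58% of all genes without C85 and 7.37% without C99. The Ccr2 call was lost with no filter (adjusted p = 0.0758) and in every fit that left out 1 library except that without WT epWAT C85 (adjusted p = 0.053 to 0.0937). The Ccl3 call was lost with no filter (adjusted p = 0.0537), without WT epWAT C75 or C85 and without WT scWAT C85 or C99 (adjusted p = 0.0525 to 0.065). With the spread shared over 12 libraries, Ccl3, Ccl6, Ccl9, Cxcl16, Ccl24 and Ackr2 lost their calls (adjusted p = 0.0584 to 0.3), while Cxcl14 (adjusted p = 0.00551) and Ccr2 (adjusted p = 0.0145) kept theirs.

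In KO mice Cxcl14 averaged 43.9 ± 12.2 FPKM in KO scWAT and 3.07 ± 1.1 FPKM in KO epWAT (SD, n = 3 each), a log2 difference of 3.46 ± 0.29 (SE; adjusted p = 0.00783), and was the single gene called. The 31 genes tested gave 1 call higher, against 0.285% of all 12623 genes, and 0 lower, against 0.428%, and limma-voom gave the same counts. An unadjusted p under 0.05 was reached by 4 genes, against 14.6% of all genes. Groups did not overlap for 3 genes with scWAT higher (Cxcl14, Cxcl13 and Ccr10), against 14.0% of all genes, and for 1 with scWAT lower (Ackr4), against 8.37%. Ackr4 again passed the filter for testing only through KO epWAT, so its lack of overlap follows from that filter. Cxcl13 and Ackr4 came next, at 3.57 ± 0.73 (SE; adjusted p = 0.107) and -0.88 ± 0.18 (SE; adjusted p = 0.114). Ccr2, at 4.29, 4.95 and 3.84 FPKM in KO scWAT and 5.22, 4.72 and 4.72 FPKM in KO epWAT, differed between the pads by -0.14 ± 0.11 (SE; adjusted p = 0.609) in KO mice. The Cxcl14 call was lost with the mouse as a block (adjusted p = 0.0718), without KO epWAT C34 (adjusted p = 0.0742), without KO scWAT C34 (adjusted p = 0.0609), and with both KO epWAT C7 and KO scWAT C695 left out (adjusted p = 0.0624). Its direction held in each of these fits. Mesothelium markers were again lower in scWAT, with 4 of 5 called, and no macrophage, adipocyte or progenitor marker was called.

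**Figure D4:**
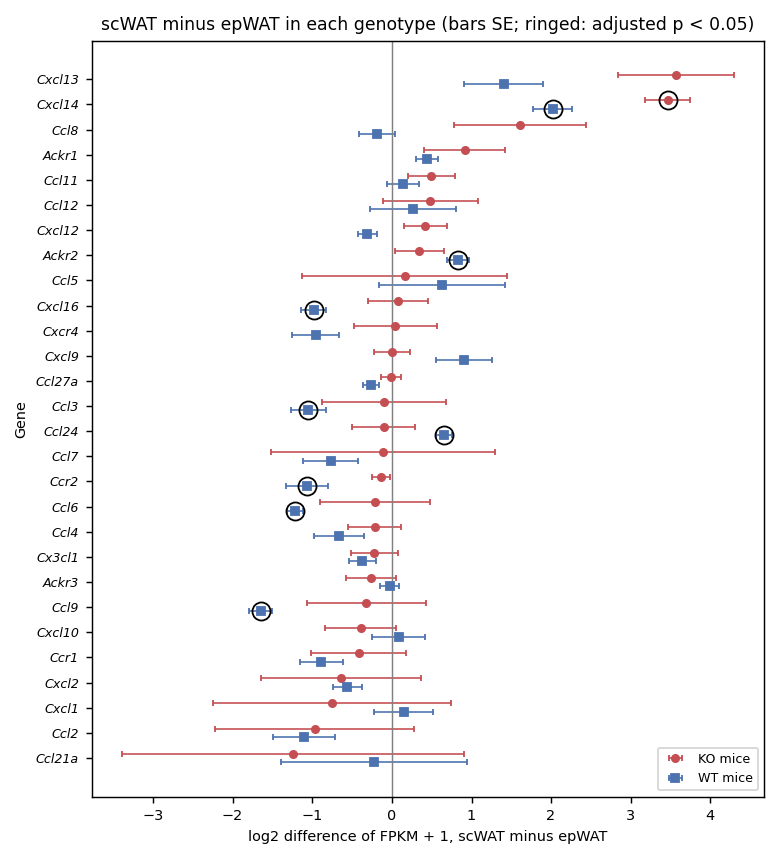
scWAT minus epWAT difference of log2(FPKM + 1) for 28 genes tested in both genotypes, with SE as bars, circles for KO mice and squares for WT mice (n = 3 per group), ordered by the KO difference. Rings mark adjusted p below 0.05, which 8 genes have in WT mice and Cxcl14 has in both genotypes.

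Several ligands and receptors were carried by single libraries. The neutrophil ligands Cxcl1 and Cxcl2, whose promoter windows are printed above, had 1 high library in common. Cxcl1 was at 87.0, 4.38 and 0.604 FPKM in KO epWAT, against 2.44, 2.21 and 0.876 FPKM in WT epWAT. Cxcl2 was at 14.8, 0.923 and 0.161 FPKM in KO epWAT, against 1.83, 1.05 and 1.24 FPKM in WT epWAT. KO epWAT C7 was far above the other 11 libraries for both. In scWAT, Cxcl1 was at 8.75, 7.89 and 0.824 FPKM in KO scWAT, against 4.08, 1.46 and 1.26 FPKM in WT scWAT. Cxcl2 was at 2.56, 1.42 and 0.083 FPKM in KO scWAT, against 0.747, 0.317 and 0.761 FPKM in WT scWAT. Their receptor Cxcr2 was at 2.0, 0.36 and 0.0219 FPKM in KO epWAT, against 0.0185, 0.0373 and 0 FPKM in WT epWAT, and at 0.214, 0.116 and 1.01 FPKM in KO scWAT, against 0.122, 0.0717 and 0.0184 FPKM in WT scWAT, so KO epWAT C7 was again the highest. Cxcl5, another Cxcr2 ligand, was at 0.195, 0.124 and 0 FPKM in KO epWAT, against 0.0909, 0 and 0.0882 FPKM in WT epWAT, and at 0.0638, 0.0946 and 0 FPKM in KO scWAT, against 0.0331, 0 and 0.0603 FPKM in WT scWAT, with no value above 0.195 FPKM. The cytokine genes Il1b and Il6, inducers of these ligands, were at 15.5 and 7.79 FPKM in KO epWAT C7, against at most 1.06 and 0.661 FPKM in any other library.

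Lymphoid ligands and receptors were carried by KO scWAT C695. Ccr7, which guides T cells and dendritic cells into lymph nodes, was at 0.571, 0.475 and 24.2 FPKM in KO scWAT, against 1.06, 0.635 and 0.852 FPKM in WT scWAT, and at 1.71, 0.497 and 0.37 FPKM in KO epWAT, against 1.31, 0.719 and 0.664 FPKM in WT epWAT. Its ligand Ccl19 was at 0.411, 0.0678 and 21.9 FPKM in KO scWAT, against 0.499, 0.063 and 0.389 FPKM in WT scWAT, and at 0.627, 0.267 and 2.15 FPKM in KO epWAT, against 0.456, 0.459 and 0.505 FPKM in WT epWAT. The other Ccr7 ligand, Ccl21a, was at 1.16, 0.338 and 176 FPKM in KO scWAT, against 13.8, 0 and 0 FPKM in WT scWAT, and at 51.2, 1.33 and 54.3 FPKM in KO epWAT, against 1.88, 0.196 and 5.85 FPKM in WT epWAT. Of the 50-base stretches of Ccl21a 71.6% also occur in copies such as Ccl21b, and of those of Ccl19 52.0%, so these values may be split among copies. Both Ccr7 ligands were highest in KO scWAT C695, and KO epWAT C7 and C695 followed for Ccl21a.

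Ccl5 was at 2.29, 0.918 and 68.2 FPKM in KO scWAT, against 23.2, 3.53 and 12.3 FPKM in WT scWAT. Cxcr3, which draws T cells to inflamed tissue, was at 0.961, 0.916 and 4.17 FPKM in KO scWAT, against 2.89, 0.852 and 1.49 FPKM in WT scWAT. Cxcr6, the T cell receptor of Cxcl16, was at 0.215, 0.0608 and 4.27 FPKM in KO scWAT, against 0.768, 0.537 and 1.11 FPKM in WT scWAT. KO scWAT C695 was the highest library for all 3. In epididymal fat Cxcr6 was at 0.845, 0.599 and 0.621 FPKM in KO epWAT, against 0.848, 0.619 and 0.255 FPKM in WT epWAT. The interferon-induced Cxcr3 ligands were spread more evenly. Cxcl9 was at 12.6, 9.74 and 17.4 FPKM in KO scWAT, against 22.9, 12.6 and 19.8 FPKM in WT scWAT, and at 12.2, 10.8 and 16.0 FPKM in KO epWAT, against 15.7, 7.68 and 6.14 FPKM in WT epWAT. Cxcl10 was at 1.58, 2.87 and 2.26 FPKM in KO scWAT, against 2.93, 1.19 and 4.19 FPKM in WT scWAT, and at 7.67, 2.21 and 1.66 FPKM in KO epWAT, against 3.21, 1.62 and 2.41 FPKM in WT epWAT. KO epWAT C7 was highest for Cxcl10, of which 133 bases overlap Art3.

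**Figure D5:**
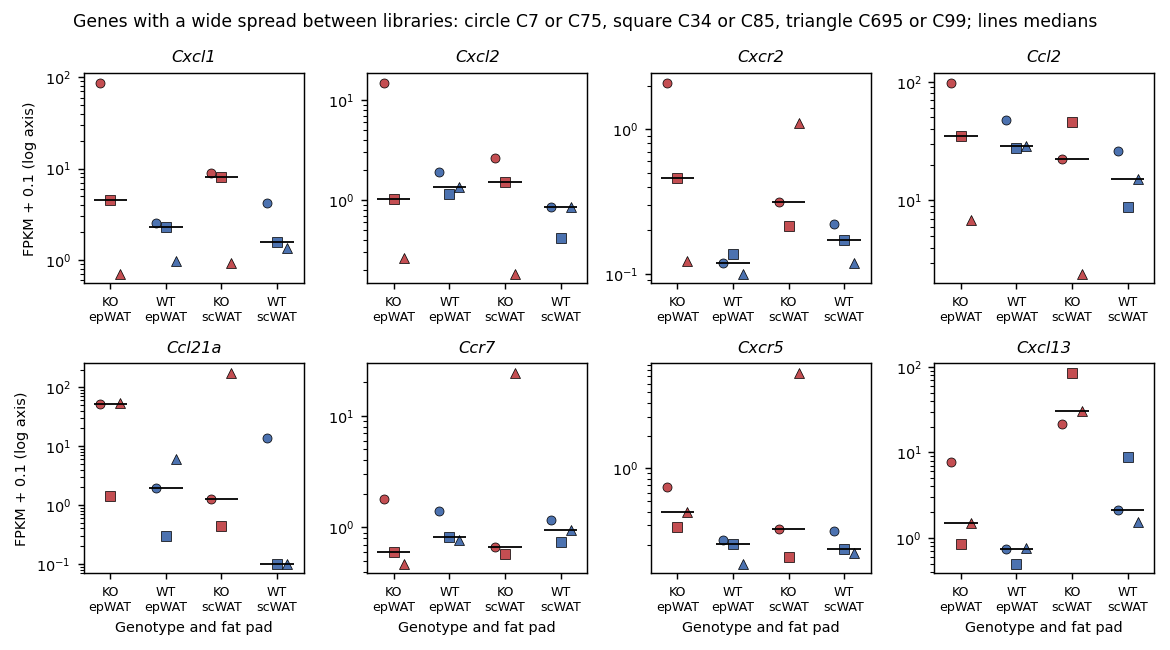
FPKM plus 0.1 on a log axis for 8 genes in the 4 groups, 1 symbol per mouse (circle C7 or C75, square C34 or C85, triangle C695 or C99) with group medians as lines (n = 3). KO epWAT C7 is the top point for Cxcl1, Cxcl2, Cxcr2 and Ccl2, KO scWAT C695 for Ccl21a, Ccr7 and Cxcr5, and KO scWAT C34 for Cxcl13.

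The fractalkine pair was low in both pads. Cx3cl1, the membrane-bound ligand, was at 2.57, 2.22 and 0.797 FPKM in KO epWAT, against 2.41, 1.62 and 1.2 FPKM in WT epWAT, and at 0.968, 1.84 and 1.34 FPKM in KO scWAT, against 1.07, 1.1 and 1.1 FPKM in WT scWAT. Cx3cr1, its receptor on monocytes and resident macrophages, was at 0.644, 0.475 and 0.163 FPKM in KO epWAT, against 1.49, 0.733 and 0.583 FPKM in WT epWAT, and at 0.224, 0.391 and 0.839 FPKM in KO scWAT, against 0.535, 0.242 and 0.312 FPKM in WT scWAT. It passed 1 FPKM in WT epWAT C75 alone and was not tested. Ccl25, the gut ligand of Ccr9, was at 0.576, 0.792 and 0.662 FPKM in KO epWAT, against 0.659, 0.657 and 0.618 FPKM in WT epWAT, and at 0.718, 0.773 and 1.09 FPKM in KO scWAT, against 0.78, 0.653 and 0.574 FPKM in WT scWAT. Of its exons, 204 bases overlap Elavl1.

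The other 17 genes are given by range. Of these, 9 stayed below 1 FPKM in every library (Ccl1, Ccl20, Ccl26, Cxcl3, Cxcl15, Cxcl17, Ccr4, Ccr9 and Cxcr1). Another 6 reached 1 FPKM and were highest in KO scWAT C695, namely Ccl22 at 0.202 to 12.1 FPKM, Ccr6 at 0 to 5.64, Ccr10 at 0.385 to 1.72, Ccr8 at 0 to 1.36, Ccl17 at 0 to 1.23 and Xcr1 at 0.0791 to 1.12. Ccl28 ranged over 0.0597 to 1.60 FPKM with its highest value in KO epWAT C7. Xcl1 ranged over 0 to 1.42 FPKM with its highest value in WT scWAT C75.

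Genes around the chemokine system were counted from lists of signalling, modifying and inducing genes. Of 23 genes for signalling and desensitisation behind the receptors, 21 had a negative KO minus WT difference in epWAT. Their median was -0.79, against -0.1 over all genes, and 0 were called, against 0% of all genes. In scWAT 15 of 23 were positive, with a median of 0.14 against 0.01 over all genes. For the interaction 22 of 23 were positive and 3 were called higher, against 0.586% of all genes. Among them were the G protein regulator Rgs10 (log2 difference 1.67 ± 0.31, adjusted p = 0.0417) and the arrestin Arrb2 (1.17 ± 0.22, adjusted p = 0.0439). These calls were lost with the mouse as a block and without any 1 of KO epWAT C34, WT epWAT C75, WT epWAT C85 and WT scWAT C99. In each of these fits 0% of all genes were called higher. In WT mice 18 of the 23 were called lower in scWAT than in epWAT, against 14.9% of all genes. Macrophage markers moved with this list in the same comparisons, and their part was not tested.

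Of 7 tested genes for chemokine-modifying enzymes and presentation, 3 were positive and 4 negative in KO minus WT epWAT, with 0 called. Between the pads of WT mice the macrophage elastase gene Mmp12 (-3.11 ± 0.44, adjusted p = 0.00665) and the proteoglycan gene Sdc1 (-1.49 ± 0.20, adjusted p = 0.00587) were lower in scWAT, and the gelatinase genes Mmp2 and Mmp9 were higher. Of 16 tested inducer genes, 8 were positive and 8 negative in epWAT with a median of 0. In scWAT 13 of 15 were positive, with a median of 0.32 and 0 called. Among 7 other chemokine-like genes tested in epWAT, 2 were positive and 5 negative. The platelet and macrophage chemokine Pf4, which falls outside the naming pattern, was at 56.3, 51.8 and 32.5 FPKM in KO epWAT, against 71.6, 55.5 and 52.7 FPKM in WT epWAT.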

How the data were processed

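RNA was Trizol-extracted and sequenced on Illumina-type libraries, per the labels' protocols. The deposited values were taken as FPKM, 1 per Ensembl gene and library, a unit inferred from the values. The sources used here do not give the aligner, the counting program, the annotation or the strand setting. The submitters' processing notes name mm9, yet gene lengths followed GENCODE M21 (GRCm38): FPKM times exon length times 1 depth per library gave whole reads, within 0.01, for 92.4% of the 32553 identifiers matched (69 were not) and for 56 of the 57 chemokine and receptor genes. All coordinates are GRCm38. Where a gene was at 0 the limit was set at 3 reads, which covers counting error only.

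Tests used limma-trend on log2(FPKM + 1) over every gene that reached 1 FPKM in 3 or more of the libraries compared, with Benjamini-Hochberg adjustment over all of them and a threshold of 0.05. Log2 differences of low genes are understated by the added 1. Each KO against WT comparison used the 6 libraries of its pad, each comparison of pads the 6 of its genotype, and the interaction all 12. Mouse codes recur in both pads and were taken to mark the same animals, which the labels do not state. Between the pads of a mouse, deviations from the group means correlated at -0.03 (C7), 0.17 (C34), 0.11 (C695), 0.36 (C75), 0.32 (C85) and 0.26 (C99). The highest correlation with another mouse of the genotype was 0.06 (C7), -0.04 (C34), 0.06 (C695), -0.09 (C75), -0.12 (C85) and -0.06 (C99). For C7 the match of the pads was thus not borne out. Since every mouse has 1 genotype, the mouse entered the KO against WT fits as a random effect only. Upper-quartile scaling moved the epWAT median over all genes to 0.02, against -0.10 as deposited.

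Values by library were given for genes called in any comparison, for those with the 6 smallest p in each KO against WT comparison and for 38 ligands and receptors fixed by name for their role in fat, 39 genes in all after 1 gene that is not reported here was left out of the text and figures. The members and lists were chosen with earlier results of these data known. Alternatives were other filters (none, or 5 FPKM), other pseudocounts (0.1 or 5), quantile and upper-quartile scaling, 1 spread over 12 libraries, the mouse as a block, limma-voom on recovered reads, leaving out each library, and leaving out KO epWAT C7 together with KO scWAT C695, which for the pads of KO mice was chosen after seeing the data. The fits were tested on simulated data. The tools were limma 3.58.1 and statmod 1.5.0 in R 4.3.3, and pandas 2.3.3, numpy 2.4.6 and matplotlib 3.10.9 in Python 3.11.15.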

Additional observations from a re-analysis of the deposited data

How the results depend on the processing

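With 3 libraries per group, single libraries moved the calls. Counts below have the share of all genes called in the same fit and direction in parentheses. KO epWAT lower calls numbered 1 with FPKM of at least 5 (0.321%), 1 with a pseudocount of 5 (0.165%), 1 with quantile scaling (0.362%), 4 with a spread shared over 12 libraries (10.8%), 4 with the mouse (replicate block) as a random effect (11.0%), and 0 to 9 when each library was left out (9 without KO C7 at 11.6%, 1 without WT C85 at 0.00803%). In scWAT 1 gene was called higher with the shared spread (0.349%) and 1 with the mouse as a random effect (0.349%). For the interaction, higher calls were 0 to 1 without single libraries (1, Ccl3, without KO epWAT C7, at 5.27%) and 7 without both of KO epWAT C7 and KO scWAT C695 (8.59%). Between the WT pads, the shared spread gave 1 higher (4.86%) and 2 lower (8.75%), the replicate block 11 lower (19.0%), and leaving out single libraries 3 to 4 higher (2.77% to 6.84%) and 3 to 8 lower (7.37% to 11.9%). Between the KO pads, higher calls were 2 with the shared spread (2.83%), 0 with the replicate block (0.0317%), 0 to 1 without single libraries (0.0081% to 0.13%) and 0 without both of KO epWAT C7 and KO scWAT C695 (0.0168%), and lower calls 1 with the shared spread (2.40%). Medians over the genes tested ranged over all alternatives from -0.71 to 0.14 in KO against WT epWAT (0 with no filter, -0.57 with FPKM of at least 5), -0.19 to 0.23 in scWAT, 0.23 to 0.80 for the interaction, -0.46 to -0.03 between the WT pads and -0.19 to 0.59 between the KO pads. For the interaction, the block left the calls among the chemokine and receptor genes at 0. Over all genes, the calls fell from 0.586% higher and 0.445% lower to 0% in both directions. Of 525 refits of 33 gene and comparison pairs, 478 kept direction and side of the threshold, 23 lost the call, 24 gained it and 0 changed sign. The cause of each change was not tested. Low genes limit the rest: Ccl3 rested on 1 to 108 reads and Ccl12 on 4 to 159.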

Other observations

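Cxcl11, an interferon-induced Cxcr3 ligand, is annotated as a polymorphic pseudogene in GENCODE M21 and so was not among the 57 genes. It was at 0.303, 0.686 and 0.597 FPKM in KO epWAT, against 0.387, 0.195 and 0.592 FPKM in WT epWAT, and at 0.642, 0.743 and 0.588 FPKM in KO scWAT, against 0.277, 0.331 and 0.548 FPKM in WT scWAT. The ratio of Ccl7 to Ccl2 FPKM, neighbouring ligands of the same receptor, was 3.0 in KO scWAT C34 and 0.748 to 1.61 in the other 11 libraries.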
